A study of Mus musculus with 71 samples.

Results

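The comparison of MUT with WT cells on day 5 of differentiation rested on 15 of the 71 chromatin accessibility libraries of this mouse series. The members were chosen by their labels, as every day 5 library, and comprised 9 MUT and 6 WT libraries, with 3 MUT and 2 WT libraries in each of the progenitor populations p0-p1, p2 and pMN. All 15 came from mouse embryonic stem cells grown in bFGF, then treated with CHIR99021, an inhibitor of the kinase GSK3, and then with retinoic acid and the Smoothened agonist SAG, so that MUT and WT cells shared every culture agent. All 15 libraries also carry NFIAn in their titles, read here as the fraction sorted without the protein NFIA. Neither the mutated gene nor its allele nor the cell clone stands in the labels. They also do not say whether the replicates were separate cultures, and p-values therefore reflect only how far these libraries differ, which may be technical.

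In CaTS-ATAC, cells are fixed, transposed, stained for intracellular proteins and then sorted before their DNA is sequenced. In ATAC-seq the transposase Tn5 cuts DNA where chromatin is open, so the reads of an interval count how accessible it was in the sorted cells. The ventral spinal cord is divided along its dorsoventral axis into progenitor domains that are set by Sonic hedgehog signalling and marked by transcription factors such as Nkx6.1 and Olig2. The p0, p1 and p2 domains give rise to ventral interneurons, and the pMN domain to motor neurons and later to oligodendrocyte precursors. NFIA is a transcription factor that appears in these progenitors at the onset of gliogenesis. Day 5 lies before that, and asks how far the genotypes already differed before NFIA was present.

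Recovered reads per day 5 library ranged from 21651652 to 29518562. The intervals of the deposited table are numbered and carry no positions or gene names, so they are named here by number, and no sequence or gene marker could be joined to them. The populations were therefore checked with interval lists chosen on day 7, in other libraries. The 7788 intervals that were higher in pMN than in p0-p1 on day 7 had medians of 53.2 to 60.8 normalised reads in MUT pMN and 46.1 to 55.9 in WT pMN on day 5. In p0-p1 their medians were 14.7 to 14.8 in MUT and 13.5 to 13.6 in WT. The 7377 intervals that were higher in p0-p1 than in pMN on day 7 had medians of 42.0 to 53.6 in MUT p0-p1 and 38.2 to 43.0 in WT p0-p1, and of 20.6 to 27.0 in MUT pMN and 18.0 to 18.5 in WT pMN. The p2 libraries lay between these on the first list, at 21.5 to 23.9 in MUT and 21.7 to 22.1 in WT. On the second they had 35.4 to 41.0 in MUT and 28.2 to 31.4 in WT, so that some MUT p2 libraries lay above the lower WT p0-p1 library, while each genotype kept the order of its populations. Within each population the share of signal in the top 1% of intervals was lower in every MUT library than in every WT library, for example 16.3% to 16.6% in MUT pMN and 17.1% to 17.4% in WT pMN. The part of this difference in the results that follow was not tested.

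Population was the main source of variation on day 5, and genotype a smaller one. Over the 15 libraries, population accounted for 58.5% of the sum of squares of log2 values, genotype for 8.58%, the interaction of both for 5.24% and replicates for the other 27.7%. In a principal component analysis, component 1, with 52.5% of the variance, ordered the libraries by population. Component 2, with 9.45%, placed the MUT libraries above the WT libraries of the same population, at -16.4 to 51.3 in MUT and -88.4 to -36.9 in WT for p0-p1. The values were 11.9 to 75.8 in MUT and -78.1 to -17.9 in WT for p2, and 9.36 to 54.6 in MUT and -72.5 to -36.4 in WT for pMN. In each population MUT replicate 1 lay nearest to WT on this component. Component 4, with 5.14% of the variance, set MUT replicate 1 apart in all populations, at scores of 60.2 to 85.3, while the other 12 libraries lay between -30.5 and -8.45.

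Few intervals differed between the genotypes by 2-fold, and most of those were more accessible in MUT. In p0-p1, 166 intervals were higher and 46 lower in MUT, 0.136% of the 155734 tested. In p2, 87 were higher and 22 lower, 0.07% of those tested. In pMN, 68 were higher and 22 lower, 0.0578%. For the difference averaged over the populations, 150 were higher and 31 lower, 0.116%. A call needed an adjusted p under 0.05 in limma's test, by the Benjamini-Hochberg method, together with a log2 change of 1 or more in size. These 181 were all the intervals whose mean change reached 1, so their number is set by the fold and not by the p-value. At an adjusted p under 0.05 with no minimum change, 13494 intervals differed over the mean of the populations, and within populations 466, 176 and 165 differed in p0-p1, p2 and pMN. An unadjusted p under 0.05 was reached by 9.97% of intervals in p0-p1, 9.82% in p2, 9.73% in pMN and 21.6% over their mean.

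The number of intervals called within a population depended on single libraries and on the fit. In p0-p1 the count was 58 without MUT replicate 2, 56 without MUT replicate 3, 78 without WT replicate 1 and 23 without WT replicate 2. In p2 it was 24 without MUT replicate 2, 44 without MUT replicate 3, 68 without WT replicate 1 and 4 without WT replicate 2. In pMN it was 145 without MUT replicate 1, 32 without MUT replicate 2, 29 without MUT replicate 3, 9 without WT replicate 1 and 12 without WT replicate 2. Over the mean of the populations, leaving out any single library gave 166 to 267, but the count was 825 with a pseudocount of 1, 44 with 20, 993 by edgeR and 586 without WT replicate 1 of every population. The fit shares its spread with all 71 libraries, and without 3 libraries of other days that went against their labels it called 392, 246 and 243 intervals in p0-p1, p2 and pMN and 181 over their mean. Within a genotype, libraries of different populations with the same replicate number deviated together, and a fit of the day 5 groups with that number as a block within genotype gave 578, 477 and 489 intervals in p0-p1, p2 and pMN and 181 over their mean. The same fit without the block gave 446, 371, 379 and 181.

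The direction of the calls also depended in part on scaling. As deposited, 78.3% of calls in p0-p1, 79.8% in p2, 75.6% in pMN and 82.9% over their mean were higher in MUT. With quantile normalization these shares were 64.9%, 63.8%, 61.8% and 62.7%, and with a pseudocount of 20 the last was 59.1%. Single libraries moved the shares too. Without MUT replicate 2 or 3 of the population the share was 63.8% or 62.5% in p0-p1, 54.2% or 63.6% in p2 and 65.6% or 55.2% in pMN. Without WT replicate 2 it was 65.2% of 23 calls in p0-p1 and 25% of 4 calls in p2. In pMN it was 44.4% of 9 calls without WT replicate 1 and 50% of 12 calls without WT replicate 2. The calls were not spread evenly over levels. Of the 181 intervals called over the mean of the populations, 4 lay in quartile 1 of all intervals by mean level, 61 in quartile 2, 72 in quartile 3 and 44 in quartile 4, the highest. The median difference over all intervals was 0.03 on the log2 scale, and in the quartiles of level, low to high, it was 0.03, 0.09, 0.07 and -0.02.

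The sharpest difference was a run of 5 consecutive intervals, Interval_143053 to Interval_143057, that was empty in MUT. It held 1 read in total over the 9 MUT libraries, and 243 to 292 reads in each WT library, 1565 in total. Per read recovered over all intervals, the MUT rate was 0.0404% of the WT rate. Its 95% exact interval of 0.00102% to 0.225% covers counting error only. The run was chosen by these same day 5 reads, so the low rate and its interval are partly built in. The 5 intervals were the only ones with at most 1 read in every library of MUT and at least 10 in every library of WT. No interval was empty in WT by the same rule. The intervals on either side held reads in both genotypes, with 95 to 182 in MUT and 143 to 194 in WT for Interval_143052 and 1129 to 1531 in MUT and 1392 to 1614 in WT for Interval_143058. The gap therefore ended between neighbouring intervals of the table. On days 9 and 11 the run held at most 1 read in each MUT library and 148 to 287 in each WT library. On day 7 the libraries labelled MUT pMN replicate 3 and WT pMN replicate 3 went against their labels, with 213 and 0 reads. The rule that chose the run left no room for such a library on day 5.

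Within the empty run, Interval_143054 had the most WT reads. Its level was 0 in all 9 MUT libraries, against 144 and 109 normalised reads in WT p0-p1, 148 and 141 in WT p2, and 87.2 and 121 in WT pMN. Set against a floor of 3 reads per MUT library, it was at least 39.9-fold lower in MUT p0-p1, 46.2-fold lower in MUT p2 and 37.0-fold lower in MUT pMN. The fitted log2 changes of -4.70, -4.90 and -4.43 depend on the pseudocount of 5 added before the logarithm (adjusted p 4.72e-05, 1.9e-05 and 0.000188, limma).

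**Figure D1:**
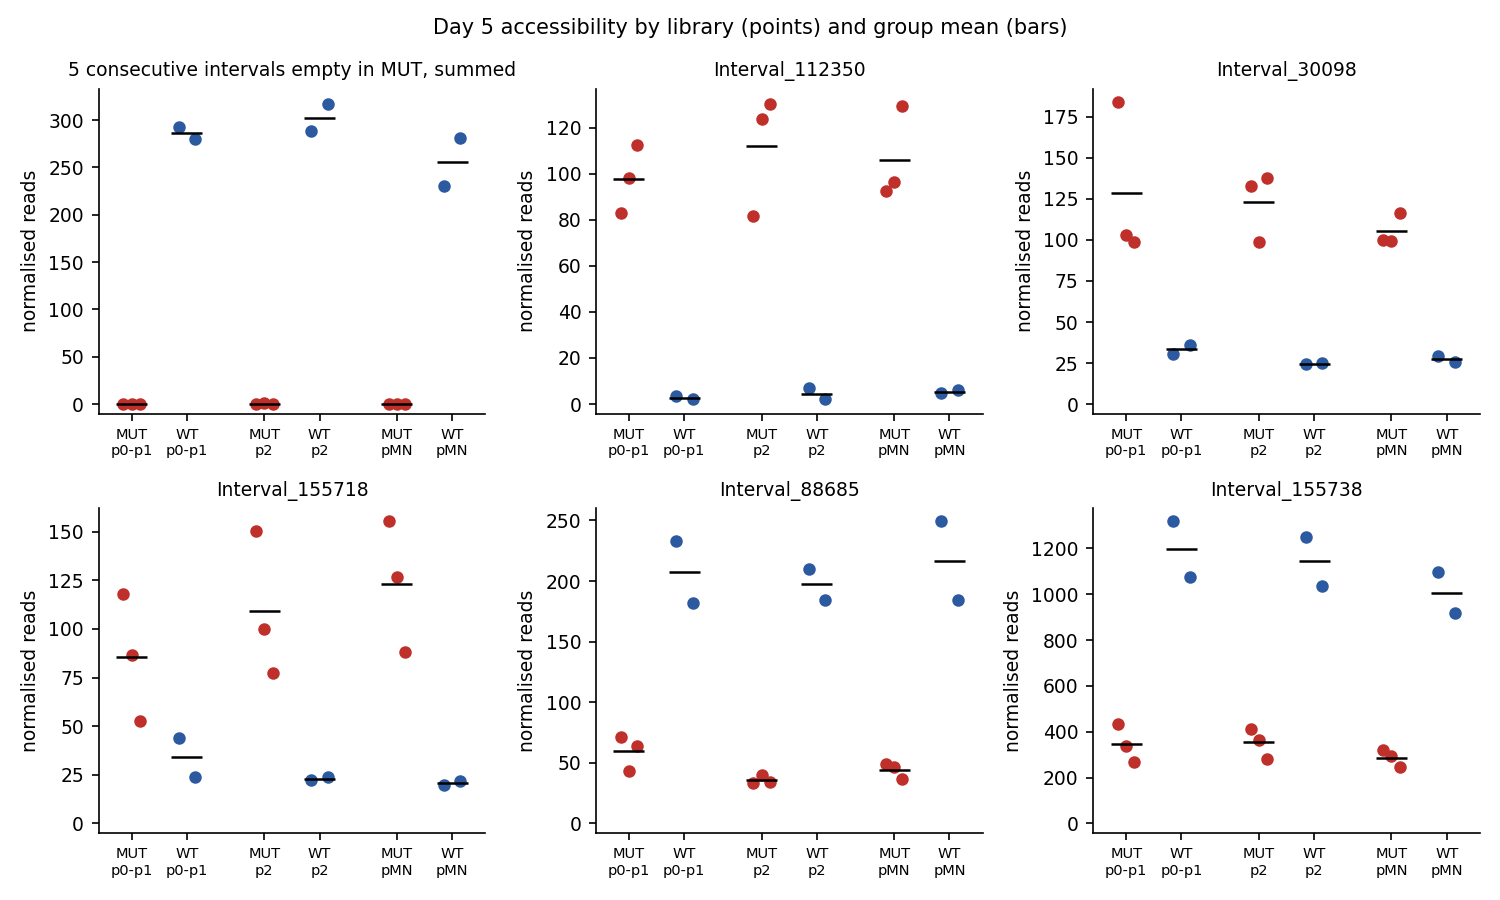
Normalised reads in each day 5 library (points) and the group mean (bars) for the empty run, summed over its 5 intervals, and for 5 intervals named by rule, with MUT left of WT in each population. In every panel the MUT and WT libraries are separated within each population, and the summed run lies at 0 to 1.14 in MUT and at 230 to 317 in WT. That separation is built in. The rule that named the 5 intervals asked for it, and the run was chosen as empty in MUT in these libraries.

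Interval_112350 showed the reverse pattern, with high values in MUT and near-empty WT libraries. It had 82.9, 98.1 and 113 normalised reads in MUT p0-p1, against 3.39 and 2.25 in WT p0-p1. In p2 it had 81.6, 124 and 130 in MUT, against 6.97 and 2.17 in WT. In pMN it had 92.6, 96.2 and 129 in MUT, against 4.74 and 6.15 in WT. No MUT library came near a WT library in any population, though separation within each population was part of the rule that named the interval. Its log2 changes were 3.71, 3.63 and 3.399 in p0-p1, p2 and pMN, each with an SE of 0.53 (adjusted p 5e-05, 0.000171 and 0.000426, limma). The difference was present on every later day, at 3.30 on day 7, 3.41 on day 9 and 3.84 on day 11 over the mean of the populations. Without WT p2 replicate 2 the p2 change was 3.26 and no longer passed the test (adjusted p 0.0826, limma), and without WT pMN replicate 1 the pMN change was 3.30 (adjusted p 0.055).

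Interval_30098 ranked next among the named intervals that rose over the mean of the populations. It had 184, 103 and 98.9 normalised reads in MUT p0-p1, against 30.6 and 36.0 in WT p0-p1. In p2 the values were 133, 98.9 and 138 in MUT, against 24.4 and 24.96 in WT, and in pMN 100, 99.4 and 117 in MUT, against 29.4 and 25.6 in WT. The lowest MUT library lay above the highest WT library in all populations together. Its log2 change over the mean of the populations was 1.87 (SE 0.22, adjusted p 2.5e-08, limma). Within p2 its call was lost without WT replicate 1 (2.08, adjusted p 0.0687) and without WT replicate 2 (2.11, adjusted p 0.172).

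A neighbouring pair at the end of the table, Interval_155718 and Interval_155719, rose in p2 and pMN. Interval_155718 had 150, 100 and 77.5 normalised reads in MUT p2, against 22.1 and 23.9 in WT p2, while MUT pMN had 155, 126 and 88.1, against 19.9 and 21.5 in WT pMN. In p0-p1 it had 118, 86.3 and 52.6 in MUT, against 44.1 and 23.6 in WT, and its log2 change of 1.21 there did not pass the test (adjusted p 0.143, limma). MUT replicate 1 was highest in each population and MUT replicate 3 lowest. The changes in p2 and pMN were 1.98 and 2.28 for Interval_155718 and 1.85 and 2.11 for Interval_155719 (adjusted p 0.00581, 0.000736, 0.0235 and 0.00609, limma). In pMN neither call held without WT replicate 1 (adjusted p 0.0567 and 0.125) or without WT replicate 2 (adjusted p 0.0645 and 0.173).

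A further 3 intervals that rose were named by rule. Interval_74066 rose in p2, with 98.8, 55.7 and 52.0 normalised reads in MUT, against 10.5 and 10.9 in WT, a log2 change of 2.18 (SE 0.39, adjusted p 0.00388, limma). Interval_40411 rose in p0-p1, with 40.9, 103 and 97.8 in MUT, against 15.8 and 15.7 in WT, a log2 change of 1.94 (SE 0.39, adjusted p 0.00916, limma). Interval_112307 rose in p0-p1, with 71.6, 85.4 and 101 in MUT, against 22.6 and 20.2 in WT, a log2 change of 1.77 (SE 0.33, adjusted p 0.00327, limma). Of these only Interval_74066 had MUT libraries above all WT libraries of every population. The call of Interval_74066 was lost without WT p2 replicate 1 or 2 (adjusted p 0.0609 and 0.146, limma), and that of Interval_112307 without WT p0-p1 replicate 1 or 2 (adjusted p 0.0552 and 0.163) or with a pseudocount of 1 (adjusted p 0.0515). The call of Interval_40411 was lost without MUT p0-p1 replicate 2 or 3 (adjusted p 0.0854 and 0.0877) and without WT p0-p1 replicate 1 or 2 (adjusted p 0.114 and 0.21).

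Interval_155738, the last of the table, was the most strongly covered of the named intervals that fell. It had 434, 339 and 267 normalised reads in MUT p0-p1, against 1322 and 1074 in WT p0-p1. In p2 it had 412, 365 and 282 in MUT, against 1252 and 1035 in WT, and in pMN 320, 294 and 247 in MUT, against 1096 and 919 in WT. The highest MUT library lay below the lowest WT library over all populations. The log2 changes were -1.79, -1.69 and -1.80 in p0-p1, p2 and pMN, each with an SE of 0.27 (adjusted p 0.00016, 0.000822 and 0.00034, limma). In p2 the call was lost without WT replicate 1 or 2 (adjusted p 0.0558 and 0.057), and in pMN without WT replicate 1 (adjusted p 0.0567).

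Interval_88685 fell in every population as well. It had 71.6, 43.2 and 64.2 normalised reads in MUT p0-p1, against 233 and 182 in WT p0-p1, and 33.3, 39.8 and 33.7 in MUT p2, against 210 and 185 in WT p2. In pMN it had 48.7, 46.5 and 36.5 in MUT, against 249 and 185 in WT. The log2 changes were -1.74, -2.32 and -2.18 (SE 0.37, adjusted p 0.0175, 0.000736 and 0.00215, limma). Interval_7507 fell in p0-p1, with 15.9, 19.6 and 16.8 in MUT, against 65.6 and 79.9 in WT, and in p2, with 11.8, 14.8 and 16.4 in MUT, against 54.6 and 38.0 in WT. In pMN it had 12.2, 13.0 and 22.2 in MUT, against 23.7 and 32.8 in WT, a log2 change of -0.70 that did not pass the test (adjusted p 0.375, limma). Interval_88685 lost its call without WT p2 replicate 2 in p2 (adjusted p 0.0637) and without WT pMN replicate 1 in pMN (adjusted p 0.127), and Interval_7507 without WT p0-p1 replicate 2 in p0-p1 (adjusted p 0.0855). The 6 intervals named by rule for the mean of the populations (Interval_30098, Interval_88685, Interval_112350, Interval_143054, Interval_155718 and Interval_155738) kept that call when any single library was left out.

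Across the populations the same directions recurred. Of the 283 intervals higher in MUT in any population, 254 were called in 1 population, 20 in 2 and 9 in all 3. Of the 62 lower in any, 45 were called in 1, 6 in 2 and 11 in all 3, and no interval was called in opposite directions. The 9 higher in all populations were Interval_30098, Interval_30108, Interval_30112, Interval_43181, Interval_112330, Interval_112331, Interval_112341, Interval_112350 and Interval_154430. The 11 lower in all comprised the 5 of the empty run and Interval_49914, Interval_88685, Interval_119016, Interval_135607, Interval_153586 and Interval_155738. Those not named by rule were listed after their values were seen. Among them Interval_154430 had the highest reads, with 2816, 2473 and 2375 in MUT p0-p1, against 1276 and 1183 in WT p0-p1, and log2 changes of 1.05, 1.07 and 1.02 in p0-p1, p2 and pMN.

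Intervals chosen in 1 population can be read in the other populations, whose libraries took no part in the choice, although they share replicate numbers and cell lines. The 166 higher in p0-p1 had a median difference of 0.66 on the log2 scale in p2 and 0.51 in pMN, with 96.4% and 92.2% above 0, where 54.5% and 55.4% of all intervals lay above 0. The 46 lower in p0-p1 had medians of -0.83 in p2 and -0.72 in pMN, with 91.3% below 0 in both. The 87 higher in p2 had medians of 0.83 in p0-p1 and 0.84 in pMN, and the 68 higher in pMN had medians of 0.80 in p0-p1 and 0.95 in p2. All 22 intervals lower in p2 (0.0141% of all) and all 22 lower in pMN were below 0 in both other populations. Across all intervals, which are not independent replicates, the differences correlated at r = 0.42 between p0-p1 and p2, 0.37 between p0-p1 and pMN and 0.46 between p2 and pMN.

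A call in 1 population and not in another was no evidence of a difference between them. The test that the MUT minus WT difference was equal in the 3 populations called 0 intervals by limma's F-test and 0 by edgeR. An unadjusted p under 0.05 was reached by 3370 intervals, 2.16%, in limma and by 4051 in edgeR. The limma share is smaller than the 0.05 that this threshold would pass with no difference anywhere. The limma test was therefore conservative, and its 0 calls do not show that the populations agree. With a pseudocount of 1 the limma test called 11, and with 20 it called 1. The median over intervals of the largest minus the smallest of the 3 differences was 0.35 on the log2 scale.

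**Figure D2:**
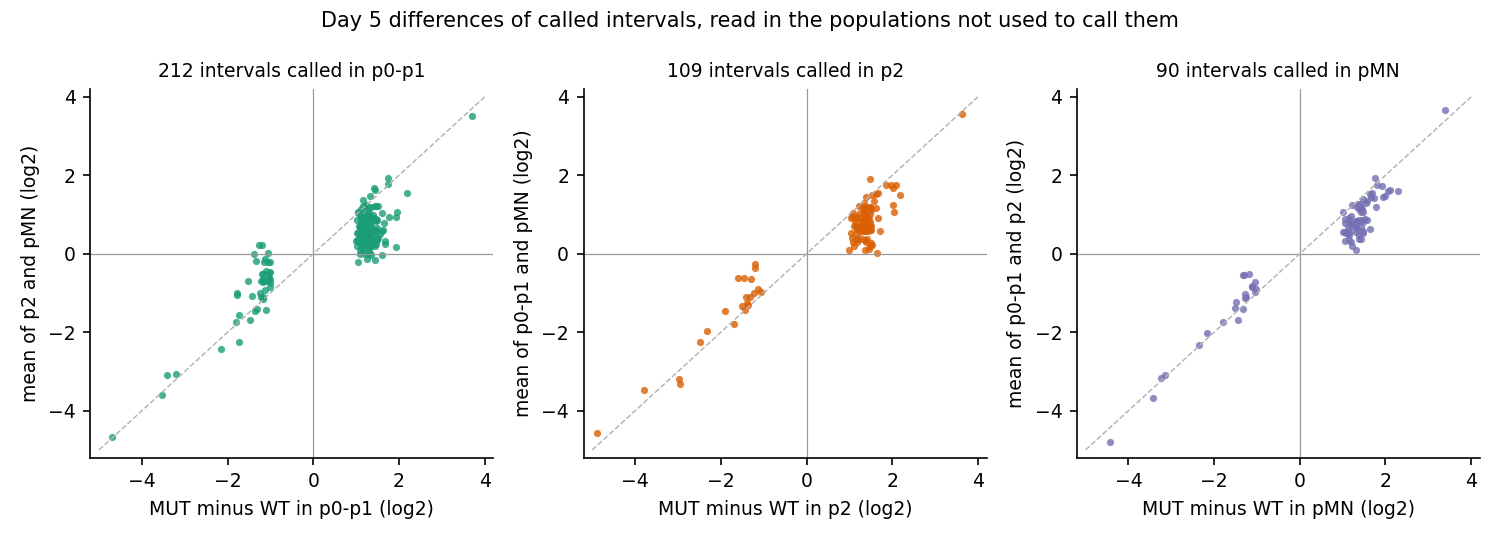
MUT minus WT difference (log2) of the intervals called in p0-p1 (212), p2 (109) and pMN (90) on the horizontal axis, and the mean difference of the same intervals in the 2 populations not used to call them on the vertical axis. Most points keep their sign and lie nearer to 0 than the dashed line of equality, and a few strong ones lie on it. The horizontal values chose the intervals.

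Part of the called intervals stood close together in the table's numbering. The intervals are numbered without positions, so a short distance in number was not turned into a distance on a chromosome. Grouping called intervals that were at most 15 numbers apart gave 14 groups of at least 3, a rule set after the values were seen. Of the 424 intervals called in any of the comparisons, 86, or 20.3%, lay in 3 long runs described below. Those runs hold 6.83%, 0.707% and 5.78% of all tested intervals, and 86.7% of all lie outside them. Of the other calls, 39 lay in the 6 short groups outside the runs and 299 in neither. Sums given for short groups cover only their called intervals. These were chosen for their day 5 difference, so the direction of the sums is partly built in.

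The longest short group outside the long runs reached from Interval_112301 to Interval_112350. There 17 intervals were called, all higher, and all 50 in the span had a mean difference above 0. The median difference over the whole span was 0.76 on the log2 scale. The summed level of the 17 called intervals was 1691, 2316 and 2341 normalised reads in MUT p0-p1, against 906 and 840 in WT p0-p1. In p2 it was 1522, 1994 and 2042 in MUT, against 747 and 677 in WT, and in pMN 1353, 1586 and 1698 in MUT, against 597 and 543 in WT. MUT replicate 1 was lowest among the MUT libraries of each population and still above both WT libraries. The 17 were chosen as higher in MUT in these same libraries, so that separation is partly built in.

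The span from Interval_30086 to Interval_30112 held 7 called intervals, all higher, with 21 of its 27 intervals above 0. The median difference over the whole span was 0.45 on the log2 scale. The 7 called intervals summed to 1469, 1223 and 1203 normalised reads in MUT p0-p1, against 493 and 614 in WT p0-p1. In pMN they summed to 1190, 1039 and 1102 in MUT, against 396 and 477 in WT. All 6 intervals from Interval_43176 to Interval_43181 were called higher, with summed levels of 206 to 309 in MUT libraries and 55.8 to 96.7 in WT libraries. From Interval_153723 to Interval_153727, 3 of the 5 intervals were called higher, and 4 of the 5 had a mean difference above 0. The 3 called intervals summed to 133 to 309 in MUT and 28.4 to 74.7 in WT.

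In the other direction, the 3 intervals from Interval_21675 to Interval_21677 were all called lower. This group lies inside the long run from 18653 to 29296 described below. Their summed level was 443, 675 and 762 normalised reads in MUT p0-p1, against 1237 and 1273 in WT p0-p1. In p2 it was 221, 486 and 489 in MUT, against 1206 and 1174 in WT, and in pMN 159, 364 and 465 in MUT, against 1130 and 1138 in WT. The WT libraries agreed closely with each other, while MUT replicate 1 was lowest in each population. The median log2 change of the 3 was -1.43 on day 5, -2.05 on day 7, -2.34 on day 9 and -2.09 on day 11.

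Over longer stretches of the numbering the genotypes differed by a small shift of many intervals at once. The runs were found in the libraries of days 7, 9 and 11, as at least 1000 consecutive intervals whose running median over about 500 intervals was shifted by more than 0.12 on the log2 scale, with gaps of up to 500 intervals joined, and were then read on day 5. Intervals 18653 to 29296, 6.83% of those tested, had median MUT minus WT differences of -0.23, -0.16 and -0.11 in p0-p1, p2 and pMN. Intervals 134646 to 143643, 5.78% of those tested and the stretch that holds the empty run, had medians of -0.13, -0.17 and -0.17. Intervals 40041 to 41141, 0.707% of those tested, had medians of 0.45, 0.39 and 0.29. All other intervals had medians of 0.05, 0.05 and 0.06 in p0-p1, p2 and pMN.

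**Figure D3:**
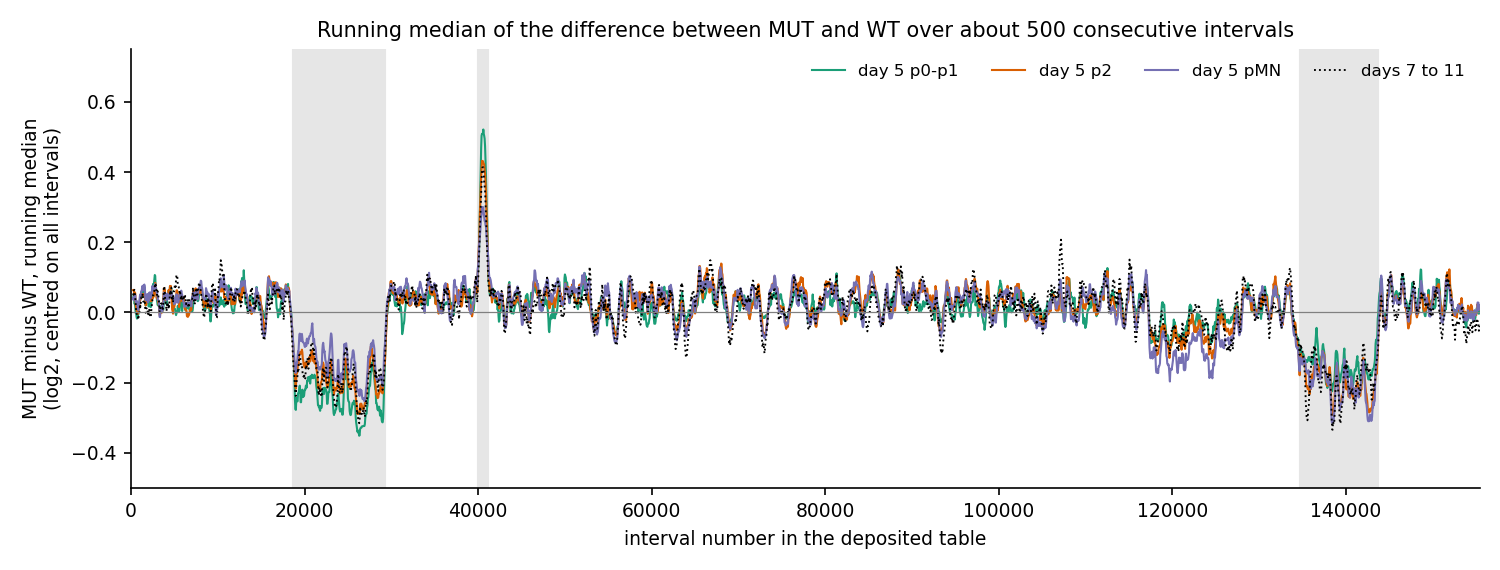
Running median over about 500 consecutive intervals of the MUT minus WT difference (log2, centred on the median of all intervals) along the interval numbers, for each population on day 5 and for days 7 to 11 together. The grey bands mark the 3 runs, where the day 5 lines mostly lie on the same side of 0 as the dotted line of the later days and farther from 0 than elsewhere, but in part of the first run the pMN line stays within the range of the other intervals.

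The runs separated the genotypes in every population, and so did all other intervals together. Outside the runs lay 83.7% to 85.0% of the reads of each MUT library and 81.3% to 83.1% of each WT library. Intervals 18653 to 29296 held 8.29% to 9.21% of the reads of each MUT library and 9.32% to 10.8% of each WT library. Intervals 40041 to 41141 held 0.647% to 0.693% in MUT libraries and 0.461% to 0.563% in WT libraries. Intervals 134646 to 143643 held 5.69% to 7.02% in MUT libraries and 7.04% to 7.45% in WT libraries. In the last of these MUT replicate 1 lay below the other MUT libraries in each population, at medians of -0.15, -0.18 and -0.16 in p0-p1, p2 and pMN relative to the middle of the genotype means, while the other MUT libraries lay between -0.07 and 0.02. In the run from 18653 to 29296, MUT replicate 1 lay nearest to WT in each population.

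**Figure D4:**
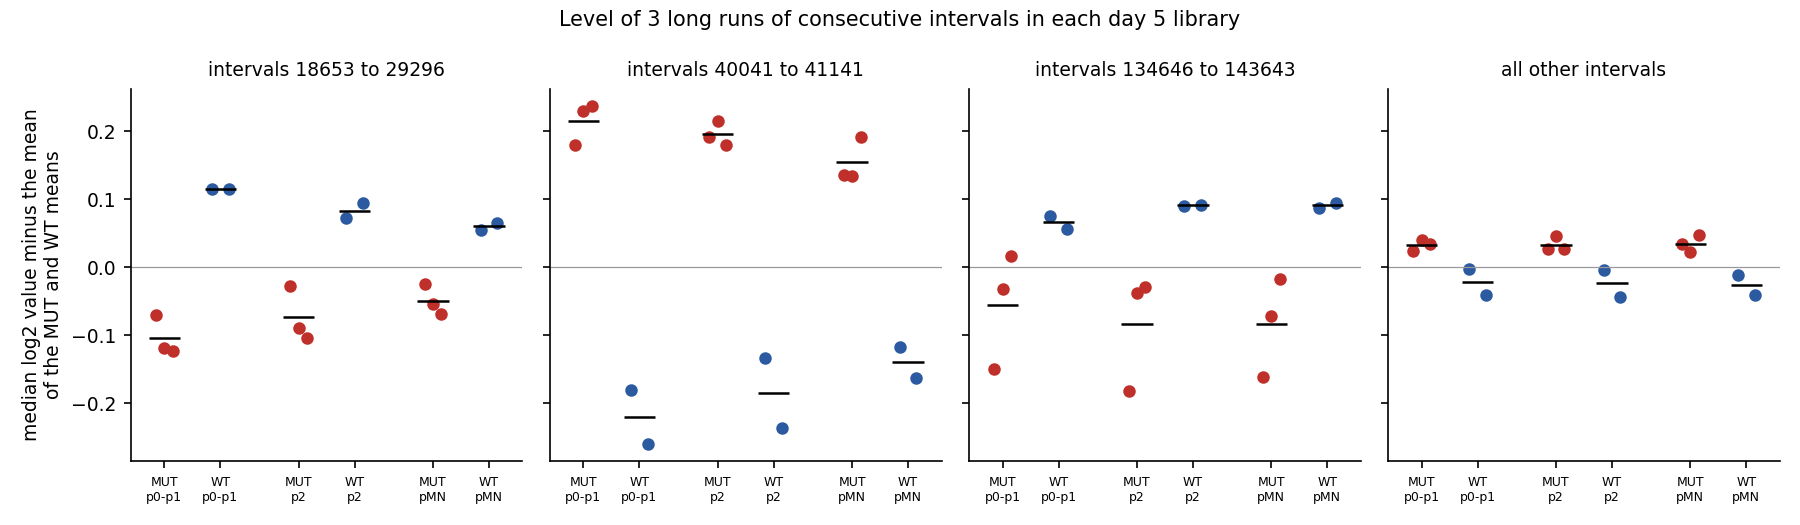
Median log2 value of each day 5 library in the 3 runs and in all other intervals, relative to the middle of the MUT and WT means of each interval in that population, with MUT left of WT and bars at group means. MUT and WT libraries do not overlap within any population in any of the 4 panels.

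Called intervals within the runs were counted beside their share over all intervals. In p0-p1, 22 of the 1101 intervals from 40041 to 41141 were called higher, 2.00%, against 0.107% of all intervals. Over the mean of the populations 24 were higher, 2.18%, against 0.0963% of all. In p2 there were 9 and in pMN 3, 0.817% and 0.272%, where 0.0559% and 0.0437% of all intervals were higher. In the run from 134646 to 143643, 15 intervals were lower in p0-p1, 0.167% against 0.0295% of all, and 5 of them were the empty run. There were 7 lower in p2 and 8 in pMN, 0.0778% and 0.0889% against 0.0141% of all in both, and again 5 of each were the empty run. In the run from 18653 to 29296, 6 were lower in p0-p1, 0.0564%, while p2 and pMN had 2 each, 0.0188%. The long runs were found from the same genotypes on other days, so these shares describe that shift and are no separate evidence of it.

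The day 5 differences mostly kept their direction later, while most of the higher intervals were not called again. The 150 intervals higher in MUT over the mean of the populations had median differences of 0.77 on day 7, 0.67 on day 9 and 0.57 on day 11, with 98.7%, 94.7% and 92.7% above 0. The 31 lower in MUT had medians of -1.19, -1.40 and -1.52, with all 31 below 0 on days 7 and 9 and 30 on day 11. These intervals were chosen for their day 5 difference, so a smaller later value is partly built in. Of the 150, 42 were called higher again on day 7, 33 on day 9 and 43 on day 11, where 0.0925%, 0.381% and 1.07% of all intervals were called higher. On all 3 later days 24 of the 150 were called, and 90 on none. Of the 31, 23, 22 and 21 were called lower again, where 0.0283%, 0.277% and 7.13% of all intervals were called lower. On all 3 later days 19 of the 31 were called, the 5 of the empty run among them, and 5 on none. Between days 5 and 9 the difference itself changed in 12 of the 181, toward 0 in each, where it changed in 0.472% of all intervals. The libraries of days 7, 9 and 11 were used here without 3 whose values went against their labels. Of these, 2 are the day 7 pMN libraries named with the empty run. The third is WT p2 NFIAp replicate 2 of day 9, whose median on the day 7 list of intervals higher in pMN was 49.8 normalised reads, against 28.2 and 29.0 in the other WT p2 NFIAp libraries and 39.7 to 53.0 in WT pMN NFIAp.

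The intervals that set MUT apart on day 11 were compared with the day 5 baseline. On day 11 MUT was NFIAn and WT was NFIAp, so genotype and fraction cannot be told apart there. The 11102 intervals lower in MUT on day 11 had a median day 5 difference of 0.02, with an interquartile range of -0.13 to 0.16, where all intervals had a median of 0.03. Their levels on day 5 were low in both genotypes, with library medians of 7.57 to 8.73 normalised reads in MUT and 7.58 to 8.998 in WT. Of the 11102, 6857 lay in the lowest quartile of day 5 level, at 12.3 normalised reads or less, where a lower value in MUT could hardly show. In the quartiles of level, low to high, their median day 5 differences were 0.01, 0.04, 0.07 and -0.01, against 0.03, 0.09, 0.07 and -0.02 for all intervals. Of the 11102, 21 were already called lower on day 5, 0.189%, where 0.0199% of all intervals were. The 5 intervals of the empty run were among the 21. By population, the 10237 intervals lower in p0-p1 on day 11 (6.57% of all) had a median of 0.01 on day 5, the 12231 in p2 (7.85%) a median of 0.02 and the 13174 in pMN (8.46%) a median of 0.04. With quantile normalization the median over the mean of the populations was -0.03.

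The 1668 intervals higher in MUT on day 11 mostly had higher values in MUT on day 5 as well. Their median day 5 difference was 0.25, with 84.8% above 0, where 56.2% of all intervals were, and 43 of them, 2.58%, were called higher on day 5. Their library medians were 26.1 to 30.5 normalised reads in MUT p0-p1 against 22.5 to 23.8 in WT p0-p1, 33.8 to 38.7 in MUT p2 against 26.05 to 29.1 in WT p2, and 41.2 to 45.2 in MUT pMN against 31.8 to 34.1 in WT pMN. No MUT library overlapped a WT library of its population, but neither did they over all tested intervals, whose medians were 27.3 to 29.4 in MUT p0-p1 against 25.9 to 27.2 in WT p0-p1, 27.9 to 29.6 in MUT p2 against 26.05 to 26.7 in WT p2, and 29.2 to 31.0 in MUT pMN against 27.7 to 28.4 in WT pMN. By population, the 1832, 3958 and 5170 intervals higher on day 11 in p0-p1, p2 and pMN (1.18%, 2.54% and 3.32% of all) had day 5 medians of 0.20, 0.18 and 0.22. The shift held within each quartile of level, at medians of 0.08, 0.24, 0.31 and 0.34 from low to high. The intervals called on day 9, when both genotypes were NFIAn, had a median day 5 difference of 0.39 for the 594 higher in MUT and -0.12 for the 431 lower in MUT. These lists come from other libraries than those of day 5 but from the same genotypes.

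**Figure D5:**
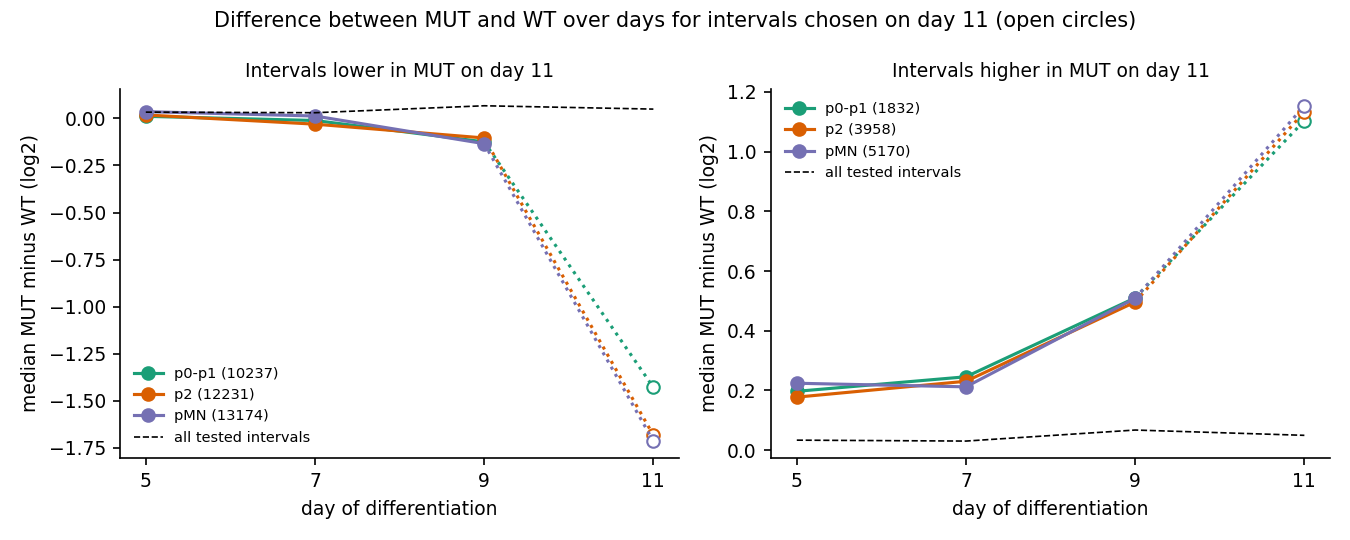
Median MUT minus WT difference (log2) on days 5, 7, 9 and 11 of the intervals lower (left) and higher (right) in MUT on day 11, for each population with the number of intervals in the legend. The open circles on day 11 chose the intervals. On day 5 the lower intervals lie at the dashed line of all tested intervals and the higher intervals lie above it.

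Intervals that differed between the NFIA fractions of WT cells on day 9 were also read on day 5. The 5676 intervals higher in the NFIAp than in the NFIAn fraction of WT p2 on day 9 had library medians of 13.96 to 15.9 normalised reads in MUT p2 and 13.9 to 14.1 in WT p2. In p0-p1 the medians were 17.7 to 18.9 in MUT and 15.7 to 15.8 in WT, and in pMN 13.0 to 14.3 in MUT and 12.3 to 13.3 in WT. Over all tested intervals the medians were 27.9 to 29.6 in MUT p2 and 26.05 to 26.7 in WT p2. The 4720 intervals lower in NFIAp had medians of 23.6 to 29.6 in MUT p2 and 27.1 to 29.1 in WT p2. In p0-p1 the medians were 13.6 to 13.7 in MUT and 13.5 to 14.7 in WT. In pMN they were 54.0 to 63.6 in MUT and 52.3 to 62.6 in WT. The genotypes overlapped in every population, while the level of this list already differed strongly between populations on day 5.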

How the data were processed

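The authors deposited 1 table of signal values, normalised read counts per consensus interval, each being reads over a size factor of its library. Reads were placed on build mm10, per the submitters' processing notes. The aligner, peak caller and counting tool are not given in the sources used here. Dividing each column by its step returned whole reads within 0.01 for 100% of values in every library. No column of the table was left unused.

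A pseudocount of 5 was added and log2 values of all 71 libraries entered 1 limma fit (version 3.58.1, R 4.3.3) of 26 group means, with a mean-variance trend and 45 residual degrees of freedom, so that the day 5 groups of 2 or 3 share the spread of all groups. Fold changes are on that scale and understate changes of low intervals. The filter asked for 10 normalised reads or more in 2 libraries or more and passed 155734 of 155738 intervals. Calls needed a p under 0.05 after Benjamini-Hochberg adjustment over all tested intervals and a log2 change of 1 or more in size. Named intervals are, per population and over their mean, the 3 higher and 3 lower calls with the largest change among those at or above the median level of 28.9 normalised reads whose MUT and WT libraries do not overlap. At that level counting error is not negligible, and reads are not all independent molecules, so read-based intervals cover counting error only. The members, lists and tests were chosen with earlier results of these data known.

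Within a genotype, libraries of different populations with the same replicate number had residual correlations of 0.12 to 0.29 in all 15 pairs, so the number was taken to pair them. With 2 WT libraries a population, the WT correlation for replicate 1 is fixed as equal to that for replicate 2. The 15 pairs are therefore not independent values. The pairing comes from the data and not from the labels. The tests of the mean difference take these libraries as independent and may understate its spread. Alternatives were pseudocounts of 1 and 20, no filter, a mean value of at least 30, quantile normalization, equal library totals, the day 5 groups alone, quality weights, replicate blocks, edgeR 4.0.16 on the recovered reads, leaving out the long runs, doubted libraries of other days, and each library in turn. Leaving out all day 5 libraries of a genotype with 1 replicate number was added after the data were seen. Gene annotation and sequences were not used here, since the intervals carry numbers only.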

Additional observations from a re-analysis of the deposited data

Results flagged for a closer look

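Among the named intervals, Interval_112307 was set apart because its MUT minus WT difference itself differed between days. Over the mean of the populations the difference was 1.22 on day 5 and 0.25 on day 9. The change was -0.96 on the log2 scale (adjusted p 0.0261, limma test of the difference between the days). That is short of the size of 1 needed for a call, so this interval is not among the 12 below. On day 7 the difference was 1.13 and on day 11 it was 0.70. Of the 181 intervals called on day 5 for the mean difference, 12 had a difference that was called different on day 9, with a change of at least 1, and all 12 changed toward 0. The intervals were chosen for a large day 5 difference, so a change toward 0 is partly built in.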

How the results depend on the processing

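No named interval reversed its direction in any setting tried. The medians of the runs and lists were computed in only part of the settings, and their direction in the others was not tested. Where computed, they kept their direction, with the following exceptions. The median day 5 difference of the intervals lower in MUT on day 11 ranged from -0.03 to 0.03. That of all tested intervals was -0.0033 with quantile normalization. Counts of called intervals are given in the order p0-p1, p2, pMN and mean of the populations, against 212, 109, 90 and 181. They were 335, 120, 151 and 825 with a pseudocount of 1, and 71, 74, 63 and 44 with 20. They were 140, 100, 110 and 114 for intervals with a mean value of at least 30. They were 446, 371, 379 and 181 with the day 5 groups only, 633, 382, 688 and 219 with library quality weights and 511, 380, 531 and 993 by edgeR. EdgeR shared 185, 104, 90 and 181 of limma's calls in the same direction. Without the long runs the counts were 90, 73, 63 and 136, and without the 3 libraries of other days that go against their labels 392, 246, 243 and 181. With no filter they were 212, 109, 90 and 181, with equal totals 244, 132, 114 and 209, and with quantile normalization 151, 94, 68 and 126. The test of a difference among populations called 0, but 11 with a pseudocount of 1 and 1 with 20. The cause of these differences was not tested.

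The replicate number as a block over both genotypes gave 326, 233, 275 and 194, and with the day 5 groups only 483, 480, 508 and 192. MUT and WT libraries of 1 population with the same number had residual correlations of -0.18 to 0.02, which gave no sign that the number pairs the genotypes. With 2 WT libraries a population, a MUT library's correlation with 1 of them is fixed as the reverse of that with the other. With the day 5 groups only and the replicate block within genotype the counts were 578, 477, 489 and 181.

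Leaving out single libraries gave 23 to 297 in p0-p1, 4 to 114 in p2, 9 to 145 in pMN and 166 to 267 over the mean. Leaving out all day 5 libraries of a genotype with 1 replicate number gave 368, 172, 194 and 455 without MUT replicate 1, 47, 23, 24 and 186 without MUT replicate 2, 47, 35, 32 and 192 without MUT replicate 3, 67, 72, 8 and 586 without WT replicate 1, and 19, 3, 1 and 240 without WT replicate 2. Where 1 WT library remains, it is assumed to vary like the other groups. With 2 WT libraries a population, counts of changed intervals within populations are not stable, while the log2 changes of named intervals kept their direction in every setting and lost their call in 50, keeping it in 760.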
